A study of Mus musculus with 4 samples.

Results

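Core and naive pluripotency transcription factors were examined in RNA-seq libraries of Smg6-deficient and wild-type mouse embryonic stem (ES) cells. The 10 factors were taken by gene symbol from the 37224 Ensembl genes of the deposited files: Pou5f1, Sox2 and Nanog as the 3 core factors, and Klf2, Klf4, Klf5, Esrrb, Tfcp2l1, Zfp42 and Tbx3 as the 7 naive-state factors. The groups were 2 libraries of Smg6-deficient ES cells and 2 libraries of wild-type ES cells, the wild-type cells being called normal in the sample titles. The labels gave the genotype but not the allele, strain, cell line or clone. Nor did they tell whether replicates were separate cultures, so the p-values reflect the spread of these 4 libraries alone, and that spread may be technical. The SMG6 protein cuts mRNAs that nonsense-mediated decay (NMD) has marked because translation stopped too early on them.

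In ES cells, Pou5f1 (Oct4) and Sox2 bind DNA side by side at composite elements, and with Nanog they form the core of the network that holds the cells undifferentiated. The naive-state factors are fed by leukaemia inhibitory factor through Stat3 and by Wnt signalling, and mark the ground state of the preimplantation epiblast. As cells leave that state, the naive factors are known to be lost early, while Pou5f1 and Sox2 persist for longer.

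Total counts were 155391181 and 137937779 in the Smg6-deficient libraries and 137643993 and 130888768 in the wild-type libraries. Smg6 itself was measured at 87.6 and 86.2 CPM in the Smg6-deficient libraries and at 95.7 and 105.1 CPM in the wild-type libraries (log2 fold change -0.21, adjusted p = 0.0886), and a count over the whole gene does not check the genotype labels. CPM is the usual depth-scaled count, here on TMM-scaled library sizes. Smg6 passed as lower with library size alone (-0.27, adjusted p = 0.0440), with a gene length correction (-0.38, adjusted p = 0.00771) and without wild-type replicate 1 (-0.26, adjusted p = 0.0147). For the labelled cell type, 12 ES cell markers other than the 10 factors were examined, and all 12 were detected in every library. At this depth detection does not check the cell type, as 15 of 15 fibroblast markers were also above 0 in every library. The summed level of the 12 ES cell markers was 4801 and 4440 CPM in Smg6-deficient cells and 5302 and 4375 CPM in wild-type cells. Trim28 alone made up 1485 and 1370 CPM of this sum in Smg6-deficient cells and 1367 and 1090 CPM in wild-type cells. Of these markers 3 rose and 2 fell, with 7 rising when wild-type replicate 1 was left out and 4 falling when wild-type replicate 2 was left out. Over all tested genes, 20.5% rose and 19.2% fell. Utf1 and Lin28a rose (log2 fold changes 0.98 and 0.72), and Fgf4 and Dppa5a fell (-1.30 and -1.14).

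Of the 10 factors, 8 fell and 1 rose in Smg6-deficient cells. The core factors Nanog and Pou5f1 fell, and so did the naive-state factors Tbx3, Tfcp2l1, Klf2, Klf4, Esrrb and Zfp42. Klf5 rose, and Sox2 did not pass the threshold. Over all 20895 tested genes, 19.2% fell, 20.5% rose and 39.7% passed in either direction, at an adjusted p under 0.05 (edgeR's quasi-likelihood test, Benjamini-Hochberg adjustment over all tested genes). For each of the 10 factors the 2 Smg6-deficient libraries lay on the same side of both wild-type libraries, below them for 9 and above them for 1. Such separation was found for 73.2% of all tested genes, with 35.9% lower and 37.3% higher. Under alternative settings, the share of all tested genes that fell was 15.1% on log2(RPKM + 1), 15.4% on log2(RPKM + 0.1), 22.1% with the replicate block, 10.8% and 10.6% without Smg6-deficient replicates 1 and 2, and 22.8% and 21.9% without wild-type replicates 1 and 2. In the same order, the share that rose was 12.9%, 12.6%, 24.3%, 13.0%, 13.4%, 25.9% and 23.0%. The median log2 fold change, Smg6-deficient over wild type, was -0.66 over the 10 factors, against 0.0080 over all tested genes. In bulk RNA, fewer cells that express a gene and less of its RNA per cell cannot be told apart.

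**Figure D1:**
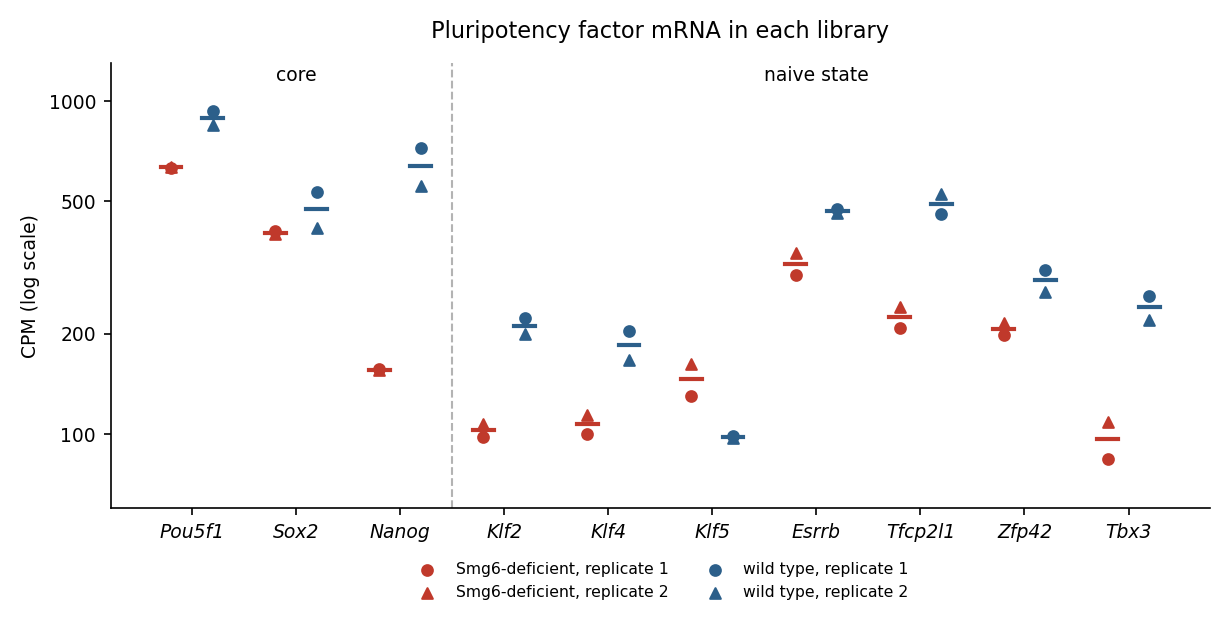
Level of each factor in each library, in CPM on a log axis, with Smg6-deficient libraries in red and wild-type libraries in blue. Circles are replicate 1, triangles are replicate 2 and horizontal bars are means of 2 libraries. For Nanog both Smg6-deficient libraries lie near 156 CPM, below 725.7 and 554.5 CPM in wild type, and Klf5 alone is higher in the Smg6-deficient libraries.

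Sequences before the gene starts are shown for 4 of the factors: Nanog, which had the lowest fold change, Pou5f1 and Zfp42, whose fold changes were alike, and Klf2, as a naive-state factor that fell more than either. They come from RefSeq on GRCm38.p6, the assembly that mm10 names, and are read 5′ to 3′ on the gene's strand, ending where the most upstream RefSeq or GENCODE start begins. Capitals mark matches, on either strand, to the 6 elements described next.
Nanog, chr6:122707239-122707488, plus strand: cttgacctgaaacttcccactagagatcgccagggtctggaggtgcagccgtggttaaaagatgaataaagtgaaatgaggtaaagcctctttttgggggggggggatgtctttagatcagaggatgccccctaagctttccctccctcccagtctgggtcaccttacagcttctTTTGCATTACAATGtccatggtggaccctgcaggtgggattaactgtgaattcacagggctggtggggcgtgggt
Pou5f1, chr17:35505782-35506017, plus strand: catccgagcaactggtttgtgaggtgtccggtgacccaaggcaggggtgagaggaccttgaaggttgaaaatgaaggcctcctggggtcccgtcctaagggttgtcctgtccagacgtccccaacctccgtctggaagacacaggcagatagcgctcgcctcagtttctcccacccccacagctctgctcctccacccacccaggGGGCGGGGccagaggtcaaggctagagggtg
Zfp42, chr8:43307010-43307259, minus strand: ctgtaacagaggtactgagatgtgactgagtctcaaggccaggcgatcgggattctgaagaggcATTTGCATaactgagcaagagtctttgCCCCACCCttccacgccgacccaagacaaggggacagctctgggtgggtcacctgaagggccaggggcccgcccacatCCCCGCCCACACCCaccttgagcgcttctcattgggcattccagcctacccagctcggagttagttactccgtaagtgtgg
Klf2, chr8:72318812-72319032, plus strand: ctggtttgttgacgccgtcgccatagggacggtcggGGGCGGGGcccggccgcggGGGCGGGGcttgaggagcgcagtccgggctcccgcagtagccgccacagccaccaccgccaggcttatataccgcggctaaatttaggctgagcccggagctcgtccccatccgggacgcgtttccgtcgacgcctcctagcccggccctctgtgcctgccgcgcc

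A RefSeq window was at hand for 8 of the 10 factors, and the 250 bases before the RefSeq start, from which positions are counted, were searched on both strands. The Oct-Sox composite, in which the octamer without its leading A is followed by any base and then the Sox element, was found in Nanog as TTTGCATTACAATG, 75 to 62 bases before the start. Of 32851 such windows in the genome, 2 held it (0.00609%), and both belonged to annotated starts of Nanog. The octamer ATTTGCAT was found in Zfp42, 186 to 179 bases before the start, and in 1.6% of all windows. The Sox element ACAATG, found in 10.7% of all windows, occurred in 1 of the 8 factors, inside the Nanog composite. The Esrrb element AAGGTCA (4.08% of windows) was found in 0 of the 8. The Klf element CCNCACCC (14.9%) was found in Esrrb and Zfp42, and the GC box GGGCGGGG (16.1%) in 5 of the 8: Pou5f1, Sox2, Klf2, Klf4 and Zfp42. A match describes the letters and is not a measured binding site.

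Among the core factors, Nanog, a homeodomain protein whose level is known to vary between single ES cells, fell the most. Nanog (ENSMUSG00000012396; GRCm38 chromosome 6, 122707489 to 122714633, plus strand) had 23920 and 20976 reads in the Smg6-deficient libraries and 101593 and 74211 reads in the wild-type libraries. These are 156.8 and 155.3 CPM in Smg6-deficient cells and 725.7 and 554.5 CPM in wild-type cells. The Smg6-deficient libraries were almost equal, and both lay far below the wild-type libraries, which differed more from each other. The fitted level was 24.4% of wild type (log2 fold change -2.04, SE 0.14, adjusted p = 0.000246), and 2.88% of all tested genes had a lower fold change. Processed copies of Nanog and of Zfp42 are annotated elsewhere in the genome, and how reads shared with them were counted is unknown here.

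Pou5f1, the POU-domain factor that pluripotency cannot do without (ENSMUSG00000024406; chromosome 17, 35506018 to 35510772, plus strand), stood at 631.9 and 632.9 CPM in Smg6-deficient cells and at 936.4 and 845.5 CPM in wild-type cells. Its level was 71.0% of wild type (log2 fold change -0.49, SE 0.090, adjusted p = 0.00621). The call was not made on the deposited RPKM values (log2 fold change -0.54, limma-trend adjusted p = 0.0634 with a pseudocount of 1). An antisense gene, Gm19553, overlaps Pou5f1 and was counted at 9880 and 8156 reads in Smg6-deficient cells and at 12782 and 11315 reads in wild-type cells, with a log2 fold change of -0.49. Since the libraries carry no strand information, the reads of the 2 genes cannot be told apart.

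Sox2, the HMG-box partner of Pou5f1 (ENSMUSG00000074637; chromosome 3, 34650405 to 34652461, plus strand), stood at 406.4 and 398.1 CPM in Smg6-deficient cells and at 532.7 and 416.9 CPM in wild-type cells. The higher Smg6-deficient library lay just below the lower wild-type library, and the wild-type libraries were the more widely spaced. The fitted log2 fold change was -0.24 (SE 0.12, adjusted p = 0.170), short of the threshold. Without wild-type replicate 2 the log2 fold change of Sox2 was -0.43, whereas without wild-type replicate 1 it was -0.039, so that the wild-type libraries decide this value. Each of these fits holds 1 wild-type library, so its replicate spread comes from the Smg6-deficient libraries alone. Sox2 lies within the span of the noncoding gene Sox2ot on the same strand. The GENCODE M21 identifier of Sox2ot is absent from the deposited counts, and how its reads were counted is unknown here.

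Of the 3 Kruppel-like zinc-finger factors, which bind similar GC-rich elements and can stand in for each other in ES cells, Klf2 and Klf4 fell and Klf5 rose. Klf2 (ENSMUSG00000055148; chromosome 8, 72319033 to 72321656) stood at 97.9 and 107.6 CPM in Smg6-deficient cells and at 223.6 and 200.2 CPM in wild-type cells (log2 fold change -1.04, SE 0.095, adjusted p = 0.000538). Klf4 (ENSMUSG00000003032; chromosome 4, 55527143 to 55532466), a reprogramming factor and a known target of Stat3, stood at 99.9 and 114.3 CPM in Smg6-deficient cells and at 203.6 and 166.6 CPM in wild-type cells (-0.79, SE 0.12, adjusted p = 0.00326). For both, each Smg6-deficient library was below each wild-type library by more than the spread within either group.

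Klf5 (ENSMUSG00000005148; chromosome 14, 99298691 to 99315036), which acts in both the inner cell mass and the trophectoderm of the blastocyst, stood at 130.3 and 162.2 CPM in Smg6-deficient cells and at 98.8 and 97.3 CPM in wild-type cells. The wild-type libraries were nearly equal and the Smg6-deficient libraries were both above them but apart from each other. Its log2 fold change was 0.58 (SE 0.11, adjusted p = 0.00834). Without Smg6-deficient replicate 2, the higher library, it was 0.42 and the call was lost (adjusted p = 0.0515).

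Esrrb, an orphan nuclear receptor and a known target of Wnt signalling (ENSMUSG00000021255; chromosome 12, 86361117 to 86521628), stood at 300.5 and 349.4 CPM in Smg6-deficient cells and at 473.0 and 462.3 CPM in wild-type cells. The log2 fold change was -0.53 (SE 0.099, adjusted p = 0.00691). Tfcp2l1, a factor of the CP2 family that acts downstream of Stat3 (ENSMUSG00000026380; chromosome 1, 118627945 to 118685168), stood at 208.8 and 241.7 CPM in Smg6-deficient cells and at 457.2 and 525.0 CPM in wild-type cells. Its fitted level was 45.9% of wild type (log2 fold change -1.12, SE 0.11, adjusted p = 0.000728), and each Smg6-deficient library was below each wild-type library. An annotated small nuclear RNA gene inside Tfcp2l1, Gm23497, had a log2 fold change of -1.07 on 465 and 494 reads in Smg6-deficient cells and 965 and 956 reads in wild-type cells, which may be shared with Tfcp2l1.

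Zfp42 (Rex1), a zinc-finger protein related to Yy1 and widely used as a reporter of the naive state (ENSMUSG00000051176; chromosome 8, 43295063 to 43306980, minus strand), stood at 197.9 and 215.4 CPM in Smg6-deficient cells and at 311.5 and 268.1 CPM in wild-type cells. The log2 fold change was -0.49 (SE 0.10, adjusted p = 0.0102). Without Smg6-deficient replicate 1, the calls of Esrrb (log2 fold change -0.41, adjusted p = 0.0759) and Zfp42 (-0.42, adjusted p = 0.0762) were lost. Zfp42 also missed the threshold on log2(RPKM + 0.1) (-0.53, limma-trend adjusted p = 0.0525).

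Tbx3, a T-box factor (ENSMUSG00000018604; chromosome 5, 119670669 to 119684724), stood at 84.3 and 109.0 CPM in Smg6-deficient cells and at 260.2 and 220.2 CPM in wild-type cells. It was the naive-state factor with the lowest fold change (log2 fold change -1.31, SE 0.14, adjusted p = 0.000974), at 40.2% of wild type. The antisense gene Tbx3os1, which overlaps its start, had 306 and 320 reads in Smg6-deficient cells and 635 and 613 reads in wild-type cells (log2 fold change -1.06). As the libraries carry no strand information, reads from the stretch where Tbx3os1 and Tbx3 overlap may be shared.

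**Figure D2:**
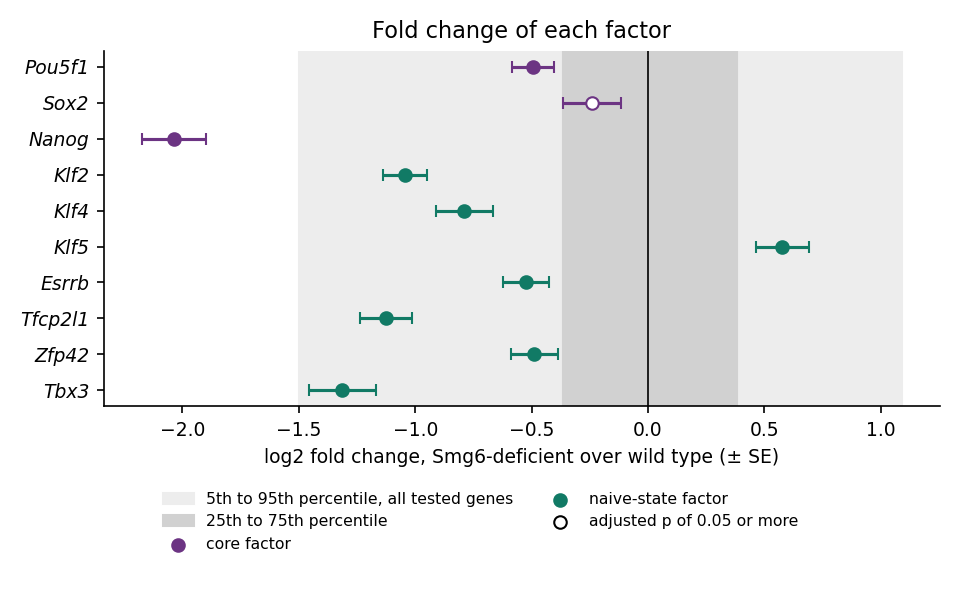
Log2 fold change of each factor, Smg6-deficient over wild type, with bars of 1 SE from the fit to 4 libraries; the shaded bands give the spread of all tested genes and the open circle did not pass the threshold. Nanog (-2.04) lies outside the band from the 5th to the 95th percentile (-1.50 to 1.09), while the other 9 factors lie within it.

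Set side by side, the core factors had 2 of 3 lower and 0 higher, and the naive-state factors 6 of 7 lower and 1 higher. The median log2 fold change was -0.49 over the core factors and -0.79 over the naive-state factors. The ranges overlapped in part: the core factors ran from -2.04 (Nanog) to -0.24 (Sox2) and the naive-state factors from -1.31 (Tbx3) to 0.58 (Klf5). Nanog lay below all 7 naive-state factors and Klf5 above all 3 core factors. With Nanog counted among the naive-state factors, 7 of 8 of these fell with a median of -0.92, and of the remaining core factors 1 of 2 fell with a median of -0.37. No test of the difference between the sets was made, since genes are not replicates.

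Ratios of RPKM within a library do not depend on how libraries are scaled. Nanog stood at 0.250 and 0.247 times the Pou5f1 level in Smg6-deficient cells and at 0.780 and 0.660 times in wild-type cells. Klf5 moved the other way, at 0.270 and 0.336 times Pou5f1 in Smg6-deficient cells and 0.138 and 0.151 times in wild-type cells. For Zfp42 the ratio was 0.392 and 0.427 in Smg6-deficient cells and 0.417 and 0.397 in wild-type cells, and for Esrrb 0.177 and 0.206 in Smg6-deficient cells and 0.188 and 0.204 in wild-type cells, so that for these factors the groups overlapped. Sox2 was higher relative to Pou5f1 in Smg6-deficient cells (0.591 and 0.578) than in wild-type cells (0.522 and 0.453). Between Klf5 and Klf2 the ratio was 1.43 and 1.62 in Smg6-deficient cells and 0.474 and 0.522 in wild-type cells. The exact two-sided permutation test cannot go below 0.333 with 2 libraries against 2, and gave 0.333 for each of these ratios except those of Zfp42 and Esrrb (1.0).

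**Figure D3:**
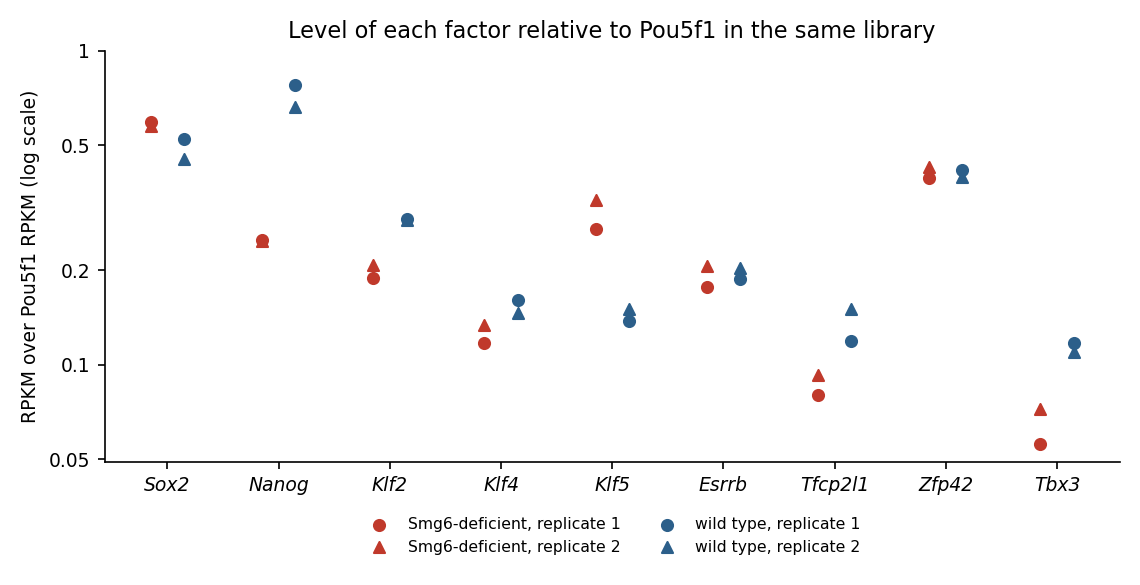
RPKM of each other factor divided by that of Pou5f1 in the same library, on a log axis, with Smg6-deficient libraries in red and wild-type libraries in blue. Nanog, Klf2, Klf4, Tfcp2l1 and Tbx3 are lower relative to Pou5f1 in both Smg6-deficient libraries, Sox2 and Klf5 are higher, and Esrrb and Zfp42 overlap.

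Per length, Pou5f1 had the highest level in both groups, at 234.0 ± 8.53 RPKM in Smg6-deficient cells and 340.7 ± 39.6 RPKM in wild-type cells (SD, n = 2 each), and Tbx3 had the lowest, at 15.0 ± 2.15 RPKM in Smg6-deficient cells and 38.7 ± 6.24 RPKM in wild-type cells. In Smg6-deficient cells the order from high to low was Pou5f1, Sox2, Zfp42, Klf5, Nanog, Klf2, Esrrb, Klf4, Tfcp2l1 and Tbx3, and the libraries of neighbours overlapped only for Klf2 and Esrrb. In wild-type cells the order was Pou5f1, Nanog, Sox2, Zfp42, Klf2, Esrrb, Klf4, Klf5, Tfcp2l1 and Tbx3. There, Sox2 and Zfp42, Klf4 and Klf5, and Klf5 and Tfcp2l1 overlapped. Nanog was at rank 5 in Smg6-deficient cells and rank 2 in wild-type cells, and Klf5 at rank 4 in Smg6-deficient cells and rank 8 in wild-type cells.

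All 10 factors are autosomal, and restricting the fit to autosomal genes left the calls of all 10 as they were. None of the 10 has a transcript annotated as an NMD substrate in GENCODE M21, against 20.3% of 20499 tested genes with an annotation. Within the Smg6-deficient group, all 7 naive-state factors were higher in replicate 2 than in replicate 1 (median log2 ratio 0.21), while the 3 core factors had a median of -0.013. The wild-type libraries differed too, with 9 of the 10 factors higher in replicate 1. The share of all tested genes that differed this way between replicates was not computed, so these counts describe the 10 factors only.

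Markers of other cell types that the cultures could hold were examined too. Of 20 primitive endoderm markers, 17 rose and 2 fell, where 20.5% of all tested genes rose and 19.2% fell. Their summed level was 3515 and 5058 CPM in Smg6-deficient replicates 1 and 2 and 1210 and 1065 CPM in wild-type replicates 1 and 2. Of this sum, Sparc made up 686.1 and 901.7 CPM in Smg6-deficient cells and 445.1 and 386.8 CPM in wild-type cells. Lamb1 made up 597.0 and 798.8 CPM in Smg6-deficient cells and 250.1 and 238.9 CPM in wild-type cells. Gata4 stood at 43.3 and 77.2 CPM in Smg6-deficient cells and at 4.0 and 3.7 CPM in wild-type cells. Cubn, an endocytic receptor of the visceral endoderm, had a log2 fold change of 4.95, the transcription factor Gata4 3.97, the laminin chain Lama1 3.62 and the receptor Lrp2 3.02. The 2 that fell were Afp (-1.69) and Hnf4a (-1.13), both at low levels. Afp stood at 0.118 and 0.178 CPM in Smg6-deficient cells and at 0.371 and 0.583 CPM in wild-type cells. Hnf4a stood at 0.911 and 1.30 CPM in Smg6-deficient cells and at 1.81 and 3.03 CPM in wild-type cells. Only Ttr was at 0, in wild-type replicate 2, and neither of the calls lower was made without Smg6-deficient replicate 1. Of 15 fibroblast markers, which would show feeder cells, 4 rose and 0 fell, where 20.5% of all tested genes rose, with a summed level of 1368 and 1251 CPM in Smg6-deficient cells and 1117 and 822.7 CPM in wild-type cells. None was at 0, and 1 rose without Smg6-deficient replicate 1, with library size alone, with no filter, with the filter of 50 counts, on RPKM or with the length correction, 9 with the replicate block and 11 without wild-type replicate 1. Fbn1, Pdgfrb, Col1a1 and Col5a2, matrix and receptor genes, had log2 fold changes of 0.73, 0.56, 0.49 and 0.41. Without wild-type replicate 1, Pdgfrb, Col1a1 and Col5a2 had 0.87, 0.76 and 0.62, and without wild-type replicate 2 they had 0.29, 0.25 and 0.22, the call of Col5a2 then being lost (adjusted p = 0.0526). All 3 also lost their calls with the length correction. The part of such cells in the levels of the 10 factors was not tested.

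Other genes of the naive state were divided: of 18 tested, 8 fell and 3 rose (6 rose without wild-type replicate 1), with a median log2 fold change of -0.29. Tcl1, a co-activator of Akt kinases, fell by 2.52 on the log2 scale, Dppa3, a maternal factor also expressed in naive cells, fell by 1.84 and Fgf4, the growth factor that drives Erk signalling in the epiblast, fell by 1.30. Gbx2, a homeobox gene, rose by 2.97. Beside these counts and those of the next list, 20.5% of all tested genes rose and 19.2% fell. The shares with 1 library left out are given above. Of 22 pluripotency cofactors, 9 rose and 3 fell (15 rose without wild-type replicate 1), among them Utf1, a chromatin protein of ES cells (log2 fold change 0.98), the histone demethylase Kdm4c (0.82), the X-linked transcriptional co-regulator Hcfc1 (0.62) and the repressor Rest (-0.69).

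Where 20.5% of all tested genes rose and 19.2% fell, 11 of 26 genes that carry signals into the network rose and 4 fell. This balance depended on the scaling: 9 rose and 7 fell with upper-quartile factors or with library size alone, 7 rose and 7 fell with the length correction, and 6 rose on RPKM. The number that fell was 2 without Smg6-deficient replicate 2 and 9 without wild-type replicate 2. Dusp6, a phosphatase induced by Erk activity, rose by a log2 fold change of 1.50. Etv4, another gene that responds to fibroblast growth factors, rose by 1.35, and Lef1, a transcription factor of the Wnt pathway, rose by 1.34. Id2, a target of bone morphogenetic proteins, fell by 1.78. Of the other Id genes on this list, Id1 rose by 0.87 and Id3 did not pass the threshold (-0.31). Of 18 tested formative and primed genes, 7 rose and 4 fell, against 20.5% and 19.2% of all tested genes. The number that fell was 7 without Smg6-deficient replicate 1, 2 without Smg6-deficient replicate 2 and 9 without wild-type replicate 2. Wnt8a rose by 2.76, the POU factor Pou3f1 by 1.86 and Dnmt3b and Dnmt3a, which lay down new DNA methylation, by 1.58 and 1.26. The 4 that fell were Zic2 (-1.14), Zic5 (-0.70), Nodal (-0.60) and Grhl2 (-0.45). The median log2 fold change of this list was -0.17. For both lists in this paragraph, the shares of all tested genes with 1 library left out are given above.

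Of 42 tested paralogs of the 10 factors, 11 rose and 8 fell (5 fell without Smg6-deficient replicate 1). Over all tested genes, 20.5% rose and 19.2% fell. Sox17, an endoderm factor that is also 1 of the 20 primitive endoderm markers, rose by a log2 fold change of 4.49. Klf12 rose by 2.10 and Sox11 by 1.48, and the X-linked Yy2 fell by 0.82. Klf12 stood at 5.88 and 5.78 CPM in Smg6-deficient cells and at 1.24 and 1.48 CPM in wild-type cells.

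**Figure D4:**
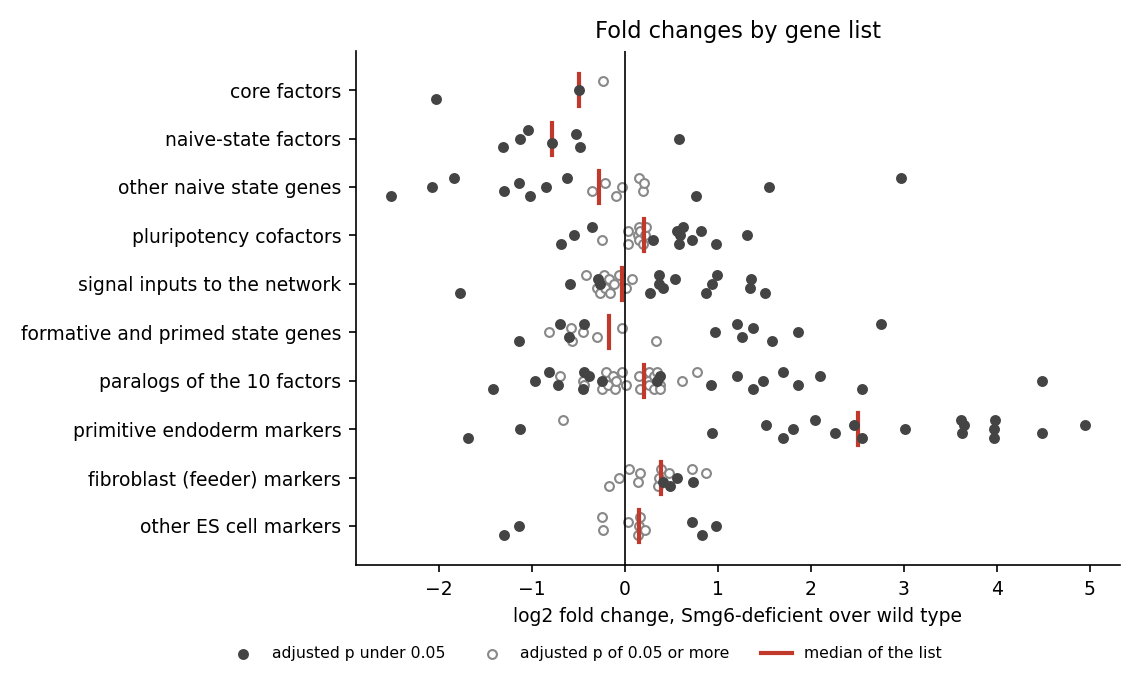
Log2 fold change, Smg6-deficient over wild type, of each tested gene of the lists, with filled points for genes past the threshold, open points for the others and a red bar at the median of each list. The core and naive-state factors have medians of -0.49 and -0.79, and the primitive endoderm markers a median of 2.50.

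By the distance between log2 CPM profiles centred on each gene's mean over the 4 libraries, among the 12344 genes whose mean log2 CPM was 2 or more, the profiles most like Nanog were those of St8sia6, a sialyltransferase (distance 0.12), Tuba3a, an alpha-tubulin (0.13), and Sfrp1, a secreted Wnt antagonist (0.14). Their log2 fold changes were -2.10, -1.96 and -1.97. Tuba3a has a close paralog, so its count is uncertain. Those most like Pou5f1 were Prss57 (0.015), Gm13092 (0.015) and Ap3s1 (0.025), with log2 fold changes of -0.49, -0.48 and -0.48. All 3 lost their calls without Smg6-deficient replicate 1 and without Smg6-deficient replicate 2.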

How the data were processed

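RNA was extracted with TRIzol from Smg6-deficient and wild-type ES cells and made into Illumina TruSeq v2 libraries, which do not mark strand, and single reads of 50 bp were sequenced, per the labels' protocols. TopHat2 2.0.9 and mm10 are named in the submitters' processing notes. Which counter, annotation and rule for multi-mapped reads were used is not given in the sources used here. For each library the authors deposited raw read counts and RPKM values by Ensembl gene. Symbols and positions came from GENCODE M21 (GRCm38).

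The main test was edgeR's quasi-likelihood test (version 4.0.16 in R 4.3.3) of genotype on counts, with TMM factors, after filterByExpr at a minimum of 10. Benjamini-Hochberg adjustment ran over all 20895 genes tested. SEs were derived from the fold change and the F statistic. Deposited RPKM values were used for ratios, for levels between genes and in limma-trend (limma 3.58.1). DESeq2 1.42.0 was an alternative. The replicates of each group differed by more than counting noise (a chi-square of 32.1 per degree of freedom in Smg6-deficient cells and 56.7 in wild-type cells).

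The 10 factors and the gene lists were chosen with earlier results of these data known, so counts over lists are descriptions. Some genes are in more than 1 list and are counted in each, among them Utf1, Lin28a, Fgf4, Dppa5a, Sox17 and Pou3f1. Genes named were the 10 factors, Smg6, up to 4 genes per list with the smallest adjusted p among those past the threshold, and the 3 genes nearest to Nanog and to Pou5f1. Genes outside this rule were the overlapping genes, Ttr, Afp, Hnf4a, Sparc, Lamb1, Trim28, Id1, Id3, Zic2, Zic5, Nodal and Grhl2. They were named after their values were seen and are not among the 37 other named genes below.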

Additional observations from a re-analysis of the deposited data

How the results depend on the processing

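Under 16 alternatives (other scaling factors, autosomal genes only, other filters, DESeq2, limma-voom, limma-trend on RPKM, the replicate block, a gene length correction and leaving out each library), none of the 160 log2 fold changes of the 10 factors changed sign, 153 kept their side of the threshold, 6 lost the call and 1 gained it. Leaving out 1 library in turn gave 6 to 9 of the 10 factors lower and 0 to 1 higher, 2 to 3 core factors lower and 0 higher, and 4 to 6 naive-state factors lower and 0 to 1 higher. The 0 arose without Smg6-deficient replicate 2, the Klf5 call. On log2(RPKM + 1) and log2(RPKM + 0.1), 1 core factor was lower, as Pou5f1 was lost, and with Nanog counted as naive 1 core factor was lower by construction. With the replicate number as a block, 8 factors were lower and 1 higher, as without it, and the calls of all 10 factors were unchanged (Nanog had a log2 fold change of -2.02). The numbers do not show that libraries are paired: the difference between replicates 1 and 2 correlated at 0.196 between the groups over 12344 genes, which are not independent. Of 590 values of the 37 other named genes, none reversed, 38 lost and 3 gained a call. With the replicate block 8 formative and primed genes and 7 signal genes were lower. For these lists the cause was not tested. With 2 libraries in each group, the number of libraries limits these calls. Where 1 library was left out, the replicate spread came from the 2 libraries of the other group alone.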
